A study of Mus musculus with 5 samples.

Results

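The genes of the cytosolic ribosomal proteins were described in erythroid cells of mouse bone marrow, on 3 arrays from Polg mutant mice and 2 arrays from wild-type (WT) mice. The members were chosen by their symbols, as every gene named Rpl or Rps with the number or letters of a ribosomal protein, other than Rps27l, that had a probe set of its own. This gave 65 of the 22180 genes tested, with 42 in the large subunit and 23 in the small subunit. Of 77 genes that encode the standard ribosomal proteins under such names, 57 were measured, 35 of 46 large-subunit and 22 of 31 small-subunit genes. The other 8 members were like-named relatives, and RefSeq lists Rpl6l and Rps4l among them as a pseudogene and a transcribed pseudogene. Another 20 standard genes, Rpl10, Rps2 and Rps27a among them, lacked a probe set carrying that symbol and no other, and 12 of these 20 had probe sets shared with other symbols.

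Polg mutant mice carried the Polgtm1Lrsn allele on both chromosomes (mt/mt), which changes the polymerase that copies mitochondrial DNA, and WT mice carried none (wt/wt). All were on the C57BL/6 background and came from one kind of mating, in which both parents were Atg7 flox/flox and carried 1 PolG mt allele and the father alone carried an Epo-cre ki allele, so floxed Atg7 was shared by both groups. The sources used here do not give which offspring inherited Cre, or ages, although the series title calls the mutator mice aged. The design text says that the mice were bled, and marrow cells were depleted of CD45-bearing leukocytes and then selected for Ter119, an antigen of erythroblasts and red cells, before 100 ng of total RNA was labelled for each array. The labels do not say that each array was a separate animal, so the p-values measure the spread between these arrays, which may be technical.

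The values were the deposited log2 levels, with array medians between 5.1 and 5.13 and a highest value of 14.07. Of the 7 erythroid markers measured of 8 fixed, the levels on single arrays were those of strongly expressed genes, with means over the list of 12.08 to 12.16 in the Polg mutant arrays and 12.25 to 12.47 in the WT arrays. Exact ties between arrays affected 56.6% of probe sets, and 5 distinct values were found in 51 of the 65 members and 32.1% of the genes tested. A difference is the Polg mutant mean minus the WT mean on the log2 scale, its error is the moderated standard error (SE) from limma, and p-values were adjusted by Benjamini-Hochberg over all 22180 genes with a threshold of 0.05. The number of arrays limits the precision, and fewer cells of a type cannot be told apart from less RNA per cell.

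The ribosome is built from a small subunit, which reads the messenger RNA, and a large subunit, which joins amino acids, each made of ribosomal RNA and a fixed set of proteins needed in about equal numbers. Most ribosomal protein messenger RNAs begin with a C followed by an unbroken stretch of C and U, the 5′ terminal oligopyrimidine (TOP) tract, through which mTOR signalling and the protein LARP1 set how strongly they are translated. Erythroid precursors make globin at a very high rate before their ribosomes are cleared, and in humans the loss of 1 copy of several ribosomal protein genes causes Diamond-Blackfan anaemia, a failure of red cell production.

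The starts of the members' transcripts are shown first because the TOP tract is the sequence the family shares. RefSeq gave a start on build GRCm38.p6 for 50 of the 65 genes, and 30 letters were read for each start, 10 before it and 20 from it. The 6 members with the longest stretch of C and T there, among those with a log2 level of 7 or more, were the following, with the stretch in capitals.
Rpl35 (chr2:39005112-39005141, minus strand): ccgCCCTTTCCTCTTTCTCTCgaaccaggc
Rpl15 (chr14:18270967-18270996, minus strand): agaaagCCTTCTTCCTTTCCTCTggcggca
Rpl7a (chr2:26910797-26910826, plus strand): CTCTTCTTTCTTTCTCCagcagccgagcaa
Rpl14 (chr9:120571507-120571536, plus strand): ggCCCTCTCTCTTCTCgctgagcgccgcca
Rps10 (chr17:27635225-27635254, minus strand): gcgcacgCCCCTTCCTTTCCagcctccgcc
Rpl34 (chr3:130730318-130730347, minus strand): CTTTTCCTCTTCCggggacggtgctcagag
A stretch of at least 8 letters of C or T was present in 21 of the 50 members (42%), against 3517 of 27025 genes with a start in the same table (13.01%), with the longest taken where a gene had several starts. The letters CTTTCC, read on the strand of the transcript, lay in this window in 7 members (14%) and in 412 of all genes (1.52%). In the whole 300 letters around the start, 250 before and 50 from it, CCGGAAG was found on either strand in 21 members (42%) and 9.93% of all genes. TATAAA was found in 6 members (12%) and 15.7% of all genes, and AAGATGGC in 3 members (6%) and 3.19% of all genes. CTTTCC and CCGGAAG, on either strand, can overlap only at their ends. These are matches of letters, not tested sites, and annotated starts may lie away from the true ones.

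The 8 members below are those of the 12 largest differences that had a start in the table and are not shown above, with their longest stretch of C or T in capitals.
Rps28 (chr17:33824543-33824572, minus strand): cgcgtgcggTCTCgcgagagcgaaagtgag
Rps19 (chr7:24884903-24884932, plus strand): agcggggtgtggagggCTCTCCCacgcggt
Rps12 (chr10:23787190-23787219, minus strand): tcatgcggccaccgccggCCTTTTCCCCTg
Rps24 (chr14:24490668-24490697, plus strand): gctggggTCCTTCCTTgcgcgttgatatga
Rpl13 (chr8:123102340-123102369, plus strand): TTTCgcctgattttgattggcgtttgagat
Rps25 (chr9:44407704-44407733, plus strand): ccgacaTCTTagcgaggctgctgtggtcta
Rps13 (chr7:116334171-116334200, minus strand): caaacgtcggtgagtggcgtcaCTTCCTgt
Rpl9 (chr5:65391412-65391441, minus strand): gggCCCTgacggattacaagaacgtgatga
Rps12 and Rps24 had a long stretch near the start, while Rps28, Rpl13, Rps25 and Rpl9 had no stretch over 4 letters in these 30. Among members with a level of 7 or more, the median difference was 0.58 in the 15 with a stretch of at least 8 letters, whose median level was 11.09, and 0.95 in the 16 without one, whose median level was 10.21. The members with a stretch at the annotated start thus had the lower median, at a higher median level, and the difference between the medians was not tested.

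Ribosomal protein genes of both subunits were higher in Polg mutant cells than in WT cells. Of the 65 genes, 60 had a positive difference, 4 a negative one and Rpl3l none. The median difference was 0.54 in the 42 large-subunit genes and 0.53 in the 23 small-subunit genes, against 0 over all genes tested. All 3 Polg mutant arrays exceeded both WT arrays in 47 members, against 8.36% of all genes, and 0 members showed the opposite order, against 9.73% of all genes. By limma, 41 members were higher at an unadjusted p under 0.05, against 4.18% of all genes, and 0 were lower, against 5.33%. After adjustment 0 members and 0 of all genes passed, and the lowest adjusted p among the members was 0.160, for Rpl13.

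The large and small subunits did not separate. All 3 Polg mutant arrays exceeded both WT arrays in 30 of 42 large-subunit genes (71.4%) and in 17 of 23 small-subunit genes (73.9%), and 26 (61.9%) and 15 (65.2%) were higher at an unadjusted p under 0.05. The medians of the large and the small subunit differed by 0.011, while the same difference computed on each array had an SD of 0.053 between arrays of a group. Its sign turned when 1 array was left out, with -0.14 without WT replicate 1, -0.096 without Polg mutant replicate 3, -0.082 without Polg mutant replicate 1 and -0.017 without Polg mutant replicate 2, and it was 0.044 without WT replicate 2. The interquartile range ran from 0.25 to 0.82 in the large subunit and from 0.25 to 1.03 in the small subunit. All 4 negative differences were in large-subunit genes, 3 of them like-named relatives.

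**Figure D1:**
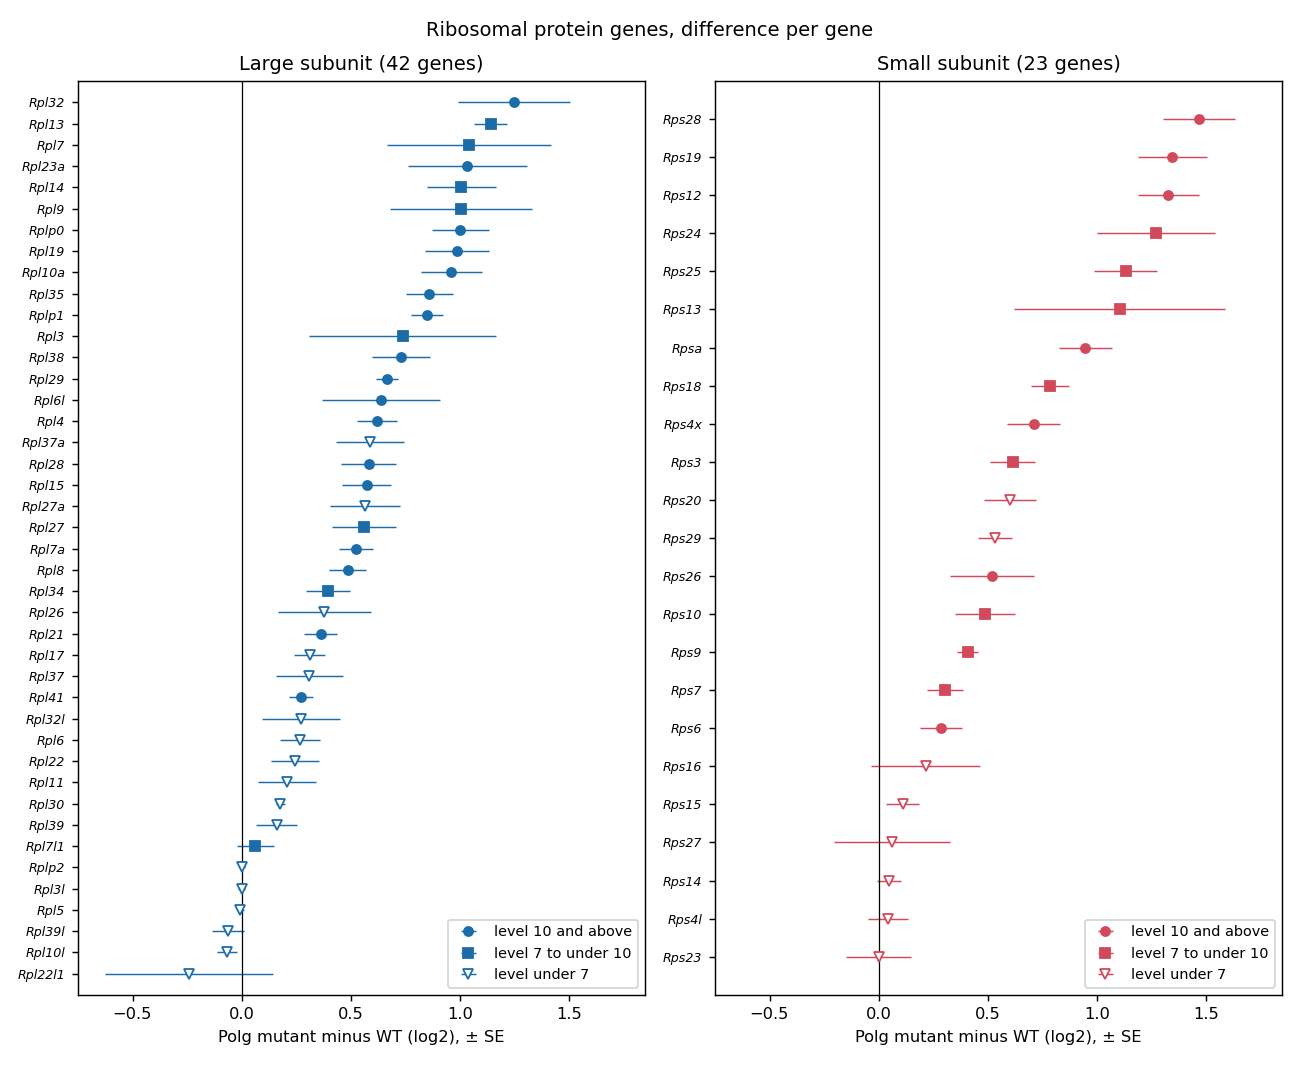
Difference of each ribosomal protein gene, Polg mutant minus WT on the log2 scale (points) with the moderated SE (bars), for 42 large-subunit and 23 small-subunit genes, with the symbol of each point giving the log2 level of the probe set. The largest differences, 1.25 for Rpl32 and 1.47 for Rps28, and the values near 0 occur in both panels, and the open triangles of the dimmest probe sets lie mostly at the bottom.

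The 4 largest differences were in small-subunit genes. Rps28, whose protein sits where the messenger RNA leaves the small subunit, read 11.77, 11.34 and 11.37 in Polg mutant cells, against 9.996 and 10.06 in WT cells, a 2.77-fold higher level (1.47 ± 0.16 SE, limma adjusted p = 0.200). Rps19, the gene most often mutated in human Diamond-Blackfan anaemia, read 11.36, 10.93 and 11.02 in Polg mutant cells, against 9.70 and 9.82 in WT cells, a 2.54-fold difference (1.34 ± 0.16 SE, limma adjusted p = 0.208). Rps12, a protein of the beak of the small subunit, read 11.31, 11.07 and 11.003 in Polg mutant cells, against 9.67 and 9.93 in WT cells, a 2.51-fold difference (1.33 ± 0.14 SE, limma adjusted p = 0.200). In each of these genes the gap between the groups exceeded the whole range within either group, and Polg mutant replicate 1 was the highest array.

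Rps24, which is needed for maturation of the small subunit's ribosomal RNA, read 10.16, 9.94 and 9.46 in Polg mutant cells, against 8.77 and 8.39 in WT cells, a difference of 1.27 ± 0.27 (SE, limma adjusted p = 0.302). Rps25, which is needed for translation from some internal entry sites, read 8.18, 7.76 and 8.03 in Polg mutant cells, against 6.84 and 6.88 in WT cells, a difference of 1.13 ± 0.14 (SE, limma adjusted p = 0.224). Rps13 had a difference of similar size, 1.105, but a wide spread, with 10.04, 9.78 and 8.78 in Polg mutant cells, against 8.72 and 8.14 in WT cells. Its SE was 0.48 and its unadjusted p by limma 0.0894, and Polg mutant replicate 3 lay just above WT replicate 1. Rpsa, which has a second known role as a laminin receptor, averaged 11.49 ± 0.15 in Polg mutant cells (SD, n = 3) and 10.54 ± 0.14 in WT cells (SD, n = 2). Its difference of 0.95 ± 0.12 (SE) had a limma adjusted p of 0.224. Rps4x, an X-linked gene, differed by 0.71 ± 0.12 (SE).

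Other proteins along the path of the messenger RNA gave a wide range of differences. Of 7 measured genes of this class of 9, 4 lay above WT on every Polg mutant array, against 8.36% of all genes, with Rps18 at 0.78, Rps3 at 0.61 and Rps26 at 0.52 beside Rps28. Rps23, which helps to check the pairing of codon and anticodon, read 6.15, 6.16 and 6.4996 in Polg mutant cells, against 6.17 and 6.37 in WT cells, with a difference of 0.00027 ± 0.15 (SE). Rps14, whose loss is linked to the human 5q- syndrome, read 4.93, 4.93 and 5.06 in Polg mutant cells, against 4.92 and 4.93 in WT cells. The groups overlapped for both genes, and the probe set of Rps14 lay below the median of the arrays and was not shown to measure its messenger RNA. All 3 measured genes of the beak, Rps12, Rps3 and Rps10, lay above WT on every Polg mutant array.

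In the large subunit, Rpl32 had the largest difference. It read 11.83, 11.52 and 11.77 in Polg mutant cells, against 10.11 and 10.81 in WT cells, a difference of 1.25 ± 0.26 (SE, limma adjusted p = 0.292). The WT arrays were 0.70 apart, so that the size of this difference depends on which WT array is used. Rpl13 had the smallest SE among the differences over 1, with 10.11, 9.95 and 9.90 in Polg mutant cells, against 8.83 and 8.87 in WT cells, a 2.20-fold higher level (1.14 ± 0.08 SE, limma adjusted p = 0.160). Rpl14 read 10.57, 10.39 and 10.22 in Polg mutant cells, against 9.23 and 9.55 in WT cells, a difference of 1.01 ± 0.16 (SE). Rpl7 and Rpl9 had differences of 1.04 ± 0.38 and 1.005 ± 0.32 (SE). The difference of Rpl7 was 0.60 without WT replicate 2 and 1.49 without WT replicate 1, so its size depends on which WT array is used.

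The stalk of the large subunit, which recruits the elongation factors, is built from Rplp0, Rplp1 and Rplp2. Rplp0, its base, read 12.09, 11.84 and 11.90 in Polg mutant cells, against 10.79 and 11.09 in WT cells, a difference of 1.002 ± 0.13 (SE, limma adjusted p = 0.225). Rplp1 read 11.85, 11.77 and 11.94 in Polg mutant cells, against 10.94 and 11.07 in WT cells, a difference of 0.85 ± 0.07 (SE, limma adjusted p = 0.186). The brightest probe sets of these 2 genes were apart between the groups, by a similar amount. Their second probe sets differed by 0.35 for Rplp0 and 0.80 for Rplp1, and the groups overlapped in both. Rplp2, whose protein pairs with Rplp1, read 4.76 on every array from its 1 named probe set, which was not shown to measure the gene.

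Around the tunnel through which the new protein leaves, 8 of 9 genes were measured and 6 lay above WT on every Polg mutant array, against 8.36% of all genes. Rpl23a, which with its neighbours binds the signal recognition particle, averaged 11.11 ± 0.30 in Polg mutant cells (SD, n = 3) and 10.08 ± 0.38 in WT cells (SD, n = 2), a difference of 1.03 ± 0.27 (SE). Rpl19 differed by 0.99 ± 0.15 and Rpl35 by 0.86 ± 0.11 (SE). Near the site of peptide bond formation, Rpl8 differed by 0.49 ± 0.09 (SE), and Rpl3 by 0.74 ± 0.43 (SE), where Polg mutant replicate 1 at 10.70 stood apart from 9.76 and 9.49 on the other Polg mutant arrays and 9.35 and 9.13 on the WT arrays, and the difference was 0.38 without that replicate. The brightest probe set of Rpl29 had a smaller but very even difference (0.67 ± 0.05 SE, limma adjusted p = 0.176). It read 12.98, 12.86 and 12.88 in Polg mutant cells, against 12.21 and 12.27 in WT cells. Another probe set of Rpl29 read 10.28, 10.10 and 10.46 in Polg mutant cells, against 8.76 and 9.36 in WT cells, a difference of 1.22.

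**Figure D2:**
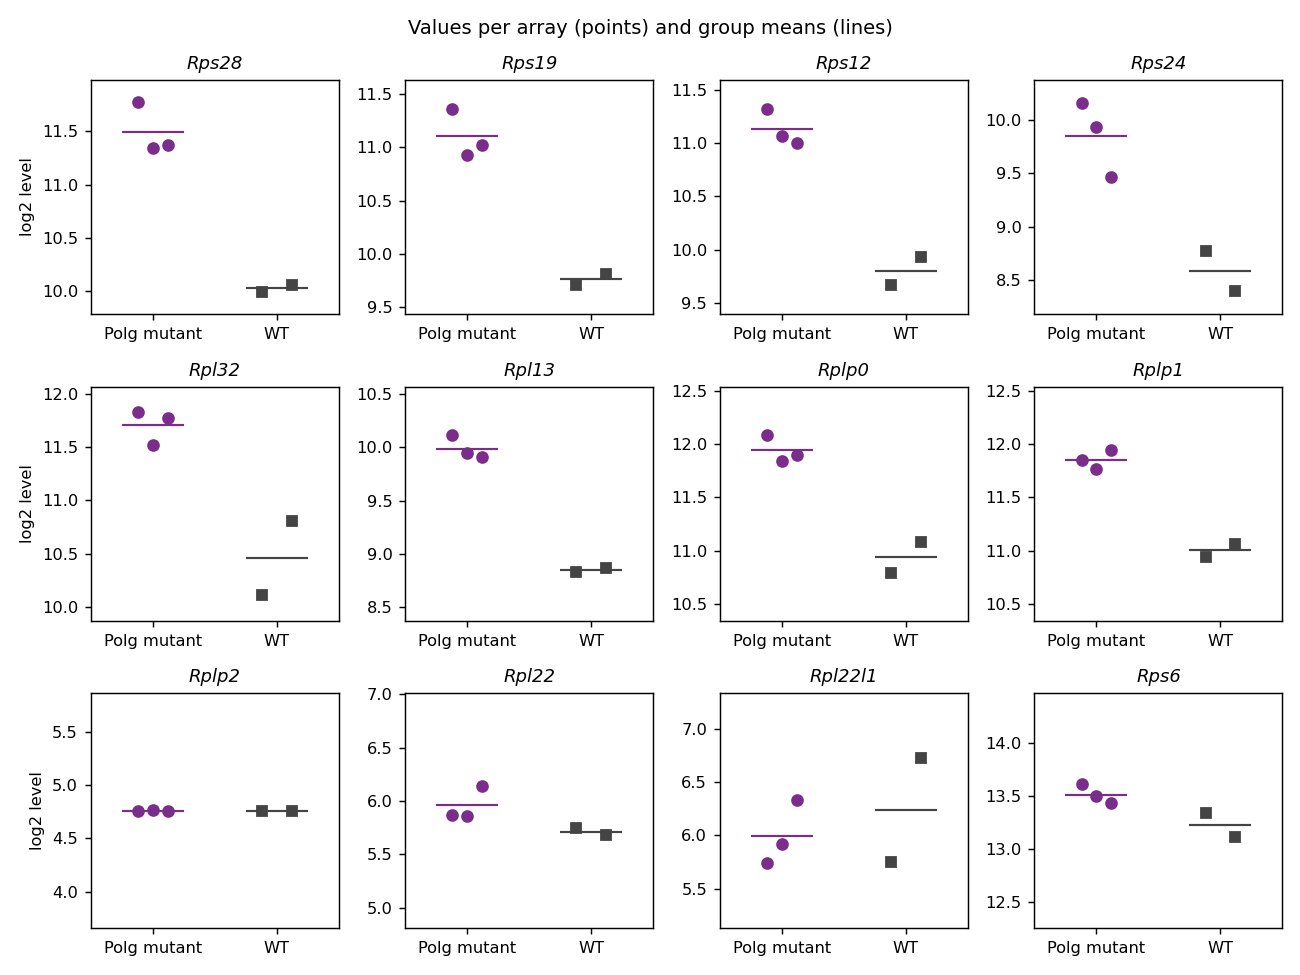
The log2 level on each array (points) and the mean of each group (lines) for 12 ribosomal protein genes, with 3 Polg mutant arrays on the left and 2 WT arrays on the right of each panel and every vertical axis spanning 2.2 log2 units. Rps28, Rps19, Rps12, Rpl13, Rplp0 and Rplp1 show separate groups, Rplp2 reads 4.76 throughout, and Rpl22l1 overlaps.

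Genes whose human counterparts are mutated in Diamond-Blackfan anaemia had a median close to that of all members. Of 22 such genes 17 were measured, with a median difference of 0.53, and 13 lay above WT on every Polg mutant array, against 8.36% of all genes. At an unadjusted p under 0.05 by limma 12 of the 17 were higher, against 4.18% of all genes. They included Rps28, Rps19, Rps24 and Rpl35, while Rpl5, Rpl11, Rps27 and Rpl26 overlapped between the groups. Rpl5 and Rpl11, which join 5S ribosomal RNA and, when left unassembled, hold back the p53 inhibitor MDM2, were among the dimmest probe sets. Rpl5 read 5.20, 5.20 and 5.20 in Polg mutant cells, against 5.21 and 5.20 in WT cells, and Rpl11 read 5.36, 5.36 and 5.603 in Polg mutant cells, against 5.09 and 5.37 in WT cells. Neither probe set was shown to measure its messenger RNA. Of 6 measured genes whose proteins bind MDM2, Rps3 and Rps7 lay above WT on every Polg mutant array, with differences of 0.61 and 0.30, and the other 4 overlapped at levels under 7.

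Like-named relatives mostly had differences near 0, at dim probe sets. Rpl22l1, the close relative that can take the place of Rpl22 in the ribosome, had the most negative difference of all members. It read 5.74, 5.92 and 6.33 in Polg mutant cells, against 5.75 and 6.73 in WT cells, a difference of -0.24 ± 0.38 (SE), which was 0.24 without WT replicate 2, so no direction could be given. Rpl22 read 5.87, 5.86 and 6.14 in Polg mutant cells, against 5.75 and 5.68 in WT cells, a difference of 0.24 ± 0.11 (SE, limma unadjusted p = 0.0966). Rpl7l1 differed by 0.06 ± 0.09 and its namesake Rpl7 by 1.04 ± 0.38 (SE). Rpl3l, a gene known from striated muscle, read 4.30 on every array, beside a difference of 0.74 ± 0.43 (SE) for the brightest probe set of Rpl3. Rpl32l read 3.24, 3.17 and 2.79 in Polg mutant cells, against 2.68 and 2.90 in WT cells, a difference of 0.27 ± 0.18 beside 1.25 ± 0.26 (SE) for Rpl32. Rpl39l, known from testis, differed by -0.06 ± 0.07 and Rpl39 by 0.16 ± 0.09 (SE). Rpl10l, also known from testis, differed by -0.07 ± 0.05 (SE), and Rpl10 was not analysed here. The pseudogene Rps4l differed by 0.04 ± 0.09 and Rps4x by 0.71 ± 0.12 (SE). Over the 8 like-named relatives the median difference was 0.02. Of these 1 (12.5%), Rpl6l, lay above WT on every Polg mutant array, a share near the 8.36% of all genes. The other 57 members had a median of 0.57, with 46 (80.7%) above WT on every Polg mutant array. The median level was 5.20 in the relatives and 9.64 in the other 57, and the part of level in this contrast was not tested. No difference between a paralog and its partner was tested, and 7 of the 8 relatives had no probe set at a level of 10 or more.

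Rpl6l, named as a pseudogene, read 10.72, 10.54 and 10.12 in Polg mutant cells, against 10.08 and 9.56 in WT cells, while the named probe set of Rpl6 read 5.37, 5.25 and 5.28 in Polg mutant cells, against 4.91 and 5.15 in WT cells. Ribosomal protein genes have many processed copies in the genome, and signal of a probe set from a copy and from its parent cannot be told apart here. Both genes were named after their values were seen.

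Differences were smaller at dim probe sets than at bright and middle ones. Members were put in classes by the mean of the Polg mutant and WT means, at 10 and above, from 7 to under 10, and under 7. The 24 members of the bright class had a median difference of 0.72, and all 24 lay above WT on every Polg mutant array, against 17.9% of the 812 genes of that class. The 16 members of the middle class had a median of 0.76, and 15 lay above WT on every Polg mutant array, against 17.6% of 4485 genes, with Rpl7l1 as the exception. The 25 members of the dim class had a median of 0.18, and 8 lay above WT on every Polg mutant array, against 5.45% of 16883 genes. By limma, 22, 12 and 7 members of the bright, middle and dim classes were higher at an unadjusted p under 0.05, against 12.4%, 10.3% and 2.16% of the genes in each class. In each class 0 members lay below WT on every Polg mutant array, against 40.8%, 25% and 4.17% of the bright, middle and dim genes. Genes of the bright class that were no members had a median difference of -0.10.

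Within the bright range the difference was not largest at the top. The 6 members between 10 and 11 had a median difference of 1.18 and the 9 between 9 and 10 of 1.005. The 9 members between 11 and 12 had a median of 0.73, the 6 between 12 and 13 of 0.64, and the 3 above 13, Rpl41, Rps6 and Rpl21, of 0.29. Rps6, the kinase target of mTOR signalling, read 13.61, 13.49 and 13.43 in Polg mutant cells, against 13.34 and 13.11 in WT cells, and Rpl41 read 13.22, 13.23 and 13.10 in Polg mutant cells, against 12.89 and 12.93 in WT cells. The difference of Rps6, 0.29, was 0.17 without WT replicate 2. The groups did not overlap for either gene, and the highest value of any probe set was 14.07. Whether signal near the top of the scale was compressed was not tested.

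**Figure D3:**
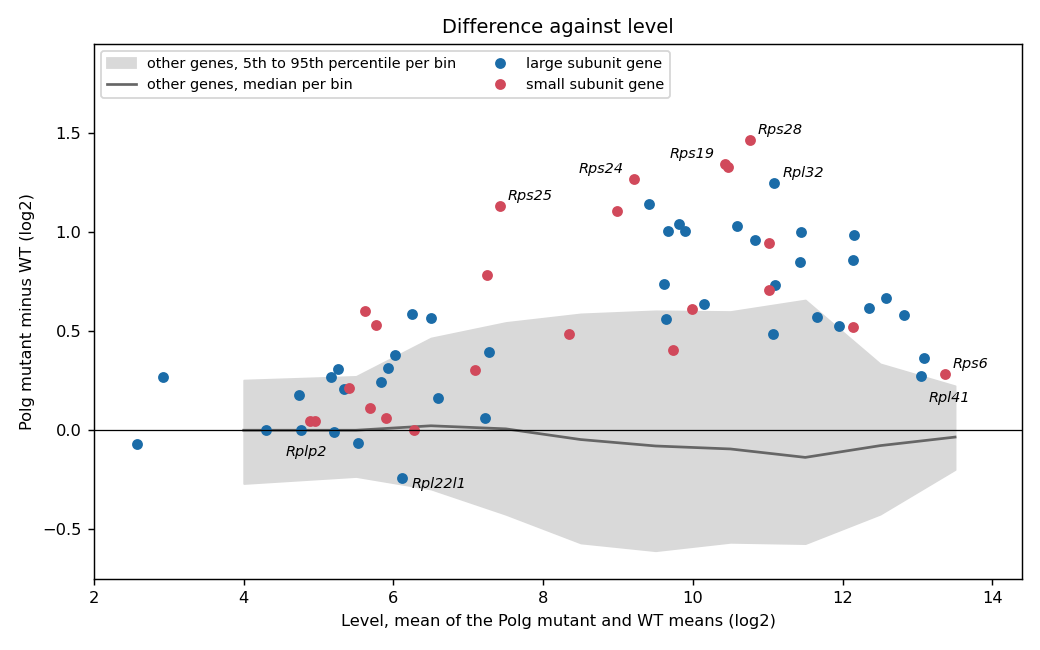
Difference of each ribosomal protein gene (Polg mutant minus WT, log2) against the log2 level of its probe set, in blue for the large and red for the small subunit, over the median (line) and the 5th to 95th percentiles (shading) of other genes in bins of level. Members between 9 and 11 lie highest, members above 13 lie near 0.3, and members under 7 lie between -0.24 and 0.60.

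Dim second probe sets of the same genes mostly gave the smaller difference too. There were 105 single-symbol probe sets for the 65 members, of which 98 had values of their own, since Rps12, Rps19 and Rpl23a had probe sets with identical values. In 18 genes the brightest probe set had a level of 7 or more and another was under 7. The brightest probe sets of these genes had a median difference of 0.90 and the dim ones of 0.23, and the brightest gave the larger difference in 16 of 18 genes. For Rps19 the brightest probe set differed by 1.34 and the dim one, at a level of 6.00, by 0.04. For Rps28 these were 1.47 and 0.32, and the dim probe set had a level of 4.82. For Rpl35 and Rpl4 the dim probe set gave the larger difference, 0.92 against 0.86 and 0.81 against 0.62. A small difference at a dim probe set thus often stood beside a large one at a brighter probe set of the same gene. Second probe sets of the middle class were mixed. Of these 6, 5 had a positive difference and 3 lay above WT on every Polg mutant array, against 7.92% of all probe sets. That of Rpl3, at a level of 9.04, differed by 0.09 and that of Rpl41, at 7.36, by -0.006. That of Rpl29, at 9.79, differed by 1.22.

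With the classes held apart, the subunits still showed no consistent order. In the bright class the medians were 0.67 over 17 large-subunit genes and 0.95 over 7 small-subunit genes. In the middle class they were 0.87 and 0.70 over 8 genes each, and in the dim class 0.21 over 17 and 0.09 over 8.

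The arrays of the Polg mutant group were not alike. With each gene set against its own WT mean, the bright members had median shifts of 0.88, 0.72 and 0.62 on Polg mutant replicates 1, 2 and 3, and of -0.01 and 0.01 on WT replicates 1 and 2. The middle members had shifts of 1.05, 0.67 and 0.49 on the Polg mutant arrays, and of 0.03 and -0.03 on the WT arrays. Polg mutant replicate 1 was the highest of the 5 arrays in 22 of 24 bright and 14 of 16 middle members. The lowest array was WT replicate 1 in 14 and WT replicate 2 in 10 of the bright members. The 2 WT arrays had a median gap of 0.19 over the 40 bright and middle members, which was larger than the difference between the groups in 0 of them, and the 3 Polg mutant arrays had a median range of 0.30. Without Polg mutant replicate 1 the bright class kept a median of 0.63 and the middle class of 0.64. On every remaining Polg mutant array 48 members lay above WT, against 10.4% of all genes with the same arrays.

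**Figure D4:**
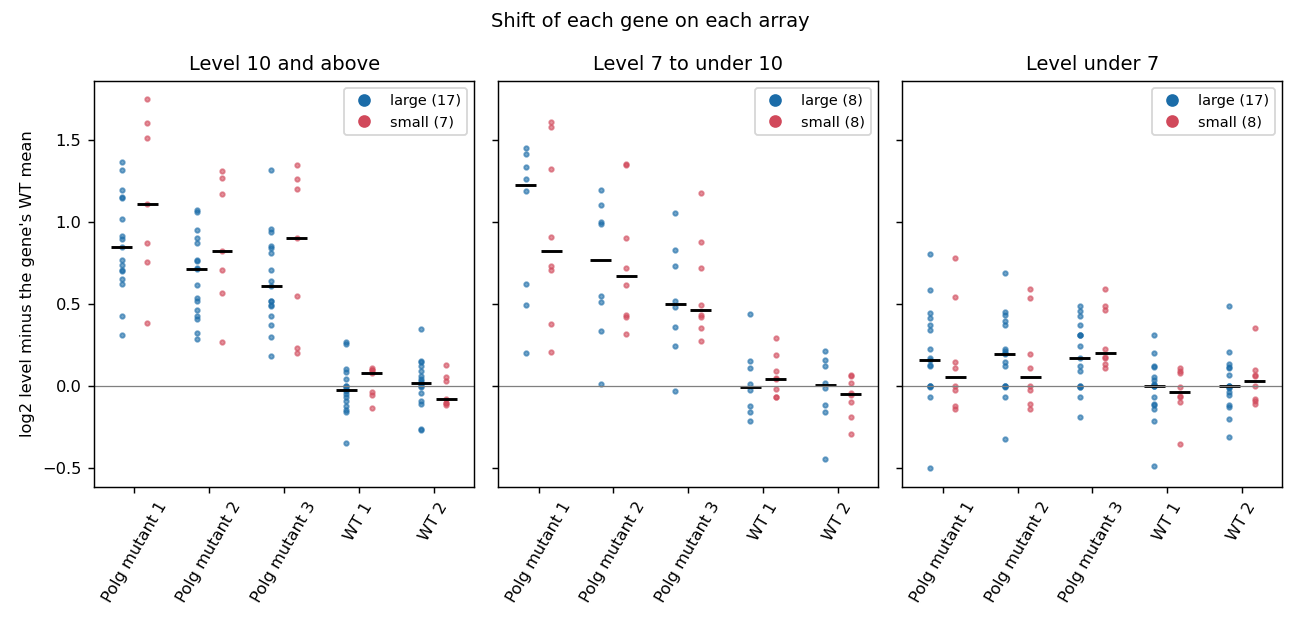
The log2 level of each ribosomal protein gene minus its own WT mean (points) on each array, by class of level and by subunit, with black lines at the median of the genes. In the bright and middle classes the medians on all 3 Polg mutant arrays lie above those on both WT arrays, highest on Polg mutant replicate 1 for both subunits, while in the dim class they lie near 0.2 or below.

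Markers of other cells and stages moved between the arrays too. Of the 7 erythroid markers, all in the bright class, 6 lay below WT on every Polg mutant array, against 40.8% of bright genes. The levels of the 7 summed to 84.6 to 85.1 in Polg mutant cells and 85.7 to 87.3 in WT cells. The 5 markers of early progenitors summed to 39.2 to 41.4 in Polg mutant cells and 35.0 to 36.2 in WT cells, with Podxl and Gata2 above WT on every Polg mutant array. Podxl differed by 3.66 and Gata2 by 0.50, against 0.17 for Kit, 0.14 for Myb and -0.10 for Cd34, which overlapped. Without Podxl the other 4 summed to 32.5, 31.1 and 30.3 in Polg mutant cells and 31.4 and 29.8 in WT cells, so the separation of the sum rested on Podxl. The mean of all 5 was highest on Polg mutant replicate 1, at 8.28, against 7.85 and 7.84 on the other Polg mutant arrays and 7.24 and 6.99 on the WT arrays, the same array on which the ribosomal protein genes were highest. The neutrophil markers averaged 9.23, 9.85 and 7.85 on the Polg mutant arrays and 8.86 and 7.39 on the WT arrays, with 0 of 8 separating the groups. The 4 B cell markers summed to 18.9 to 21.2 in Polg mutant cells and 20.7 to 22.8 in WT cells. The 4 T and NK cell markers summed to 20.1 to 20.96 in Polg mutant cells and 19.7 to 21.3 in WT cells. The 5 macrophage markers summed to 27.9 to 29.7 in Polg mutant cells and 28.3 to 28.5 in WT cells, and the 4 megakaryocyte markers to 26.6 to 27.9 in Polg mutant cells and 27.5 to 31.5 in WT cells. Among these, Gp9, a platelet surface glycoprotein, read 8.84, 9.23 and 9.11 in Polg mutant cells, against 10.42 and 10.41 in WT cells, a difference of -1.36 ± 0.14 (SE, limma unadjusted p = 0.00081, adjusted p = 0.200), and was named after its values were seen. No marker was at 0 on the log2 scale, but the lowest value of any probe set was 1.43, so this does not show that a cell type was present. The part of cell composition or stage in the difference of the ribosomal protein genes was not tested.

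Other genes tied to the ribosome were read from lists chosen by function. Fau, which encodes a small-subunit protein fused to a ubiquitin-like protein, read 12.53, 12.31 and 12.21 in Polg mutant cells, against 11.64 and 11.63 in WT cells, a difference of 0.71 ± 0.11 (SE, limma adjusted p = 0.238). Of 22 measured translation factors and other genes, most of which are known for TOP messenger RNAs, 19 had a positive difference, with a median of 0.32, and 16 lay above WT on every Polg mutant array and 1 below. All 22 were in the bright or middle class, where 17.9% and 17.6% of genes lay above. At an unadjusted p under 0.05 by limma, 15 were higher and 0 lower, against 12.4% and 10.3% of bright and middle genes higher. Eef1b2, the exchange factor of the elongation factor eEF1A, read 10.64, 10.38 and 10.36 in Polg mutant cells, against 9.63 and 9.49 in WT cells, a difference of 0.90 ± 0.12 (SE). Tpt1, a classical TOP gene, differed by 0.96 ± 0.18 (SE), and Eef2, the translocase of elongation, by 0.31 ± 0.05 (SE). Slc25a5, a mitochondrial carrier of ADP and ATP, differed by 0.15 ± 0.03 (SE). The 3 negative differences, named after their values were seen, were -0.03 ± 0.02 for Pabpc1, -0.09 ± 0.04 for Snrnp70 and -0.10 ± 0.07 for Nap1l1 (SE).

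**Figure D5:**
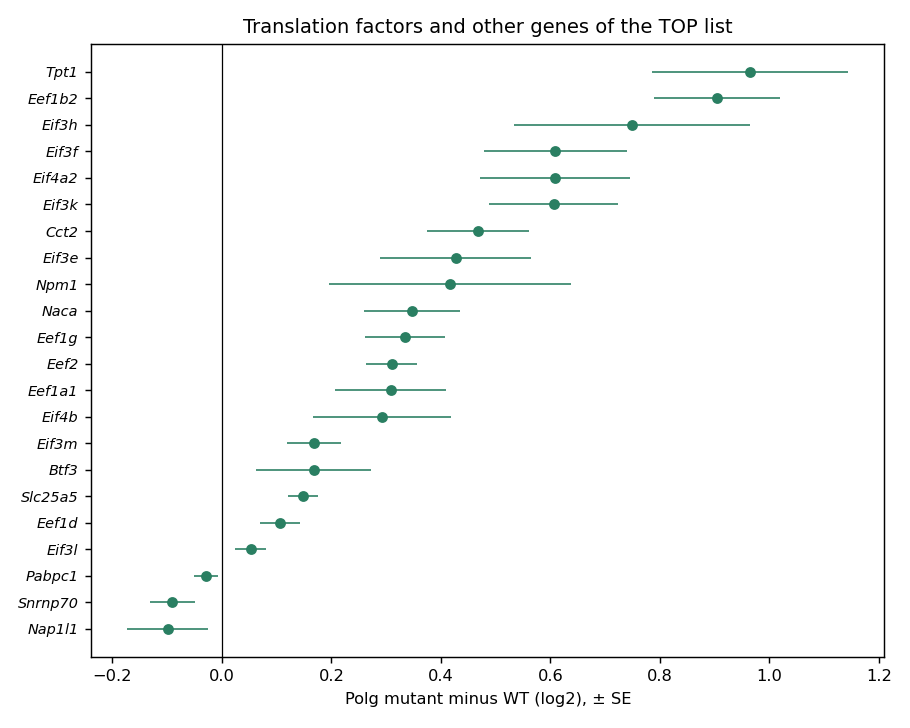
Difference of 22 translation factor and other genes, Polg mutant minus WT on the log2 scale (points), with the moderated SE (bars). Tpt1 and Eef1b2 lie near 0.9 to 1, and 3 genes, Pabpc1, Snrnp70 and Nap1l1, lie below 0.

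Of 11 measured chaperones of ribosomal proteins and assembly factors of the ribosome, 8 had a positive difference, with a median of 0.11. On every Polg mutant array 4 lay above and 1 below WT, against 8.36% and 9.73% of all genes. Bop1, which acts in the maturation of the large subunit, differed by 0.41 ± 0.13 (SE), and Rpf2, which brings 5S ribosomal RNA to the large subunit, by 0.57 ± 0.27 (SE). Among 9 regulators, the median was -0.04. Myc, a transcription factor that drives ribosome production, read 9.18, 8.57 and 8.73 in Polg mutant cells, against 8.01 and 7.83 in WT cells, a difference of 0.91 ± 0.22 (SE, limma adjusted p = 0.341). Eif4ebp1, the cap-binding inhibitor that mTOR turns off, differed by 0.91 ± 0.15 (SE, limma adjusted p = 0.249). Sp1, a transcription factor, differed by -0.37 ± 0.09 and Mtor by -0.12 ± 0.07 (SE). In the mitochondrial ribosome the medians were 0.08 over 43 large-subunit genes and 0.12 over 28 small-subunit genes, with 14 large-subunit and 6 small-subunit genes above WT on every Polg mutant array and 1 small-subunit gene below, against 8.36% above and 9.73% below over all genes. The share of the middle class above was 17.6%.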

How the data were processed

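RNA was measured on 1-colour whole-transcript arrays, 3 from Polg mutant and 2 from WT Ter119-selected marrow cells. The authors deposited log2 values for 41345 probe sets, and the submitters' processing notes name RMA and Partek 6.5 without saying what each did. That the scale is log2 follows from the range of the values, and the sources used here give no build or probe annotation version. Probe sets with 1 symbol in the platform annotation were named, the brightest probe set over all arrays stood for each gene, and no gene was removed for being dim. Limma 3.58.1 in R 4.3.3 was fitted over 22180 genes and 5 arrays with genotype as the single term and empirical Bayes moderation without a trend, two-sided, with Benjamini-Hochberg adjustment, and was checked on simulated data. An exact permutation test of 1 gene could not go below p = 0.1.

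Members and lists were chosen with earlier results of these data known, so no list was given a p. Genes named were, in each subunit, the 6 largest and 3 lowest differences and the 2 brightest, the paralog pairs, a fixed set and the 2 of smallest p in each class of role, with up to 4 of smallest p in each other list; members behind a count of 5 or fewer were named after their values were seen. Alternatives covered scaling, a level filter, moderation, ties, probe sets, a replicate block and leaving out each array. Transcript starts were RefSeq's, on GRCm38.p6. No scanner data were analysed here, so whether a dim probe set was above background is unknown.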

Additional observations from a re-analysis of the deposited data

How the results depend on the processing

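With 2 WT arrays the differences rest on few values, and the dim probe sets and the exact ties between arrays limit what the smaller differences can show. The replicate numbers 1 and 2 are shared by the groups, but the sample titles do not say that same-numbered arrays belong together. The deviations from the group means correlated at 0.19 for number 1 and -0.20 for number 2 across genes. With 2 WT arrays the deviations of one are the negatives of the other's, so these values cannot decide whether the arrays were paired. With the replicate number as a block, 32 members were higher at an unadjusted p under 0.05 by limma, against 4.91% of all genes. After adjustment 0 members passed. The medians were 0.66 in the small subunit, -0.096 for large minus small and 0.12 in the dim class. Polg mutant replicate 3 was alone in its block, so these medians equal those without that array and are not a separate check.

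Under every alternative run, the count of members above WT on every Polg mutant array kept its direction. So did the medians of both subunits and of the 3 classes. The other moderation could not change any of these values, and the replicate block could not change the count. Apart from the replicate block and the fits without 1 array, the medians moved by more than their spread between arrays in the following cases. Renewed quantile normalization gave 0.20 in the dim class. The filter at a level of 6 gave 0.66 in the small subunit, -0.042 for large minus small and 0.31 in the dim class, over 49 members. The mean of all probe sets gave 0.44 in the large subunit, 0.35 in the small subunit, 0.088 for large minus small and 0.49 in the middle class. Limiting the fit to the 7112 genes without ties gave 0.27 in the dim class and 11 members past the adjusted threshold, against 0 in the fit to all genes and 1.03% of the 7112 genes higher. These were Rpl10a, Rpl13, Rpl19, Rpl35, Rplp0, Rplp1, Rps12, Rps19, Rps25, Rps28 and Rpsa, with limma adjusted p from 0.0224 to 0.0478, and absence of ties is not independent of the difference.

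Leaving out 1 array at a time gave 30 to 37 members higher at an unadjusted p under 0.05, 0 to 3 past the adjusted threshold, 48 to 52 above WT throughout and 0 to 3 below. Over all genes these fits gave 3.23% to 8.56%, 0% to 3.21%, 10.4% to 23% and 11.7% to 28.1%. The medians ran from 0.43 to 0.56 in the large subunit, from 0.47 to 0.66 in the small subunit and from -0.14 to 0.044 for large minus small. They ran from 0.63 to 0.81, from 0.64 to 0.90 and from 0.12 to 0.18 in the bright, middle and dim classes. Some of these moved by more than their spread between arrays. Without Polg mutant replicate 1 these were 0.43 in the large subunit and -0.082 for large minus small. Without Polg mutant replicate 3 they were 0.66 in the small subunit, -0.096 for large minus small and 0.12 in the dim class. Without WT replicate 1 they were -0.14 for large minus small and 0.15 in the dim class. Past the adjusted threshold by limma, Rpl30, Rps15 and Rps9 were higher and Rpl10l was lower (-0.13, adjusted p = 0.0168) without WT replicate 1, against 3.21% of all genes higher and 4.82% lower. Without WT replicate 2, Rps9 was higher, against 2.3% of all genes. These shares of members are near those of all genes, in fits where the 1 remaining WT array had to borrow its spread from the Polg mutant arrays.

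Signs turned only for named members with differences near 0 or wide spread. Leaving out 1 array gave -0.73 to 0.24 for Rpl22l1, -0.014 to 0.00084 for Rpl5, -0.0093 to 0.11 for Rpl7l1, -0.11 to 0.096 for Rps23 and -0.023 to 0.11 for Rps4l. The replicate block, whose differences equal those without Polg mutant replicate 3, gave -0.11 for Rps23 and -0.023 for Rps4l. Renewed quantile normalization gave 0.011 for Rpl5. Centring on the array median gave -0.0043 for Rplp2 and -0.0050 for Rps23, and centring on genes above a level of 6 gave -0.016 for Rplp2 and -0.017 for Rps23. The cause of each change was not tested.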

Other observations

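Probe sets whose annotation joins a standard ribosomal protein symbol to other symbols were kept out of the comparisons and are given only as a group. There were 57 of them, touching 32 of the standard genes. Their median difference was 0.62, 54 had a positive difference, and 42 lay above WT on every Polg mutant array and 1 below, against 7.92% and 9.69% of all 41345 probe sets. At a mean level of 10 or more there were 18, with a median of 0.84, and all 18 lay above WT on every Polg mutant array, against 19.7% of all probe sets at that level. The single-symbol probe sets that were not the brightest of their gene numbered 40, of which 33 in 23 genes had values of their own. These 33 had a median difference of 0.32, and 15 lay above WT on every Polg mutant array and 0 below, against 7.92% and 9.69% of all probe sets.

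Rps3a1, the mouse name of the standard small-subunit gene that the symbol rule did not take in, was looked at after the other values were seen. It read 10.52, 10.36 and 9.84 in Polg mutant cells, against 9.88 and 9.14 in WT cells, a difference of 0.73 ± 0.35 (SE), and the groups overlapped. Rps27l, a p53 target related to Rps27 that the rule left out, differed by 0.15 ± 0.09 (SE), with tied values of 7.73 on 3 arrays.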
